A study of Mus musculus with 6 samples.

Results

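The genes described here are 45 genes of the cell division cycle, 20 that act in DNA replication or in the entry into it and 25 that act in mitosis. They were chosen by name and known role, with earlier results of these data known, and all 45 were among the 24062 genes counted in each library and among the 15652 genes tested. The replication genes are Mcm2 to Mcm7, Pcna, Rrm1, Rrm2, Tyms, Cdc6, Cdt1, Gins2, Rfc4, Pola1, Prim1, Ccne1, Ccne2, E2f1 and E2f2. The mitosis genes are Mki67, Top2a, Cdk1, Ccna2, Ccnb1, Ccnb2, Bub1, Bub1b, Aurka, Aurkb, Plk1, Cdc20, Kif11, Kif20a, Kif23, Tpx2, Birc5, Cenpe, Cenpf, Nusap1, Ttk, Ube2c, Prc1, Anln and Foxm1.

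RNA-seq was performed on mouse dorsal root ganglion (DRG) and neurofibroma tissue, and 3 Nf1fl/fl;DhhCre libraries were compared with 3 libraries labelled Runx1/Runx3 double knockout. The question was how loss of Runx1 and Runx3 in addition to Nf1 changes gene expression in these tumors. In the labels the second genotype reads Rx1flfl;Rx3fl/fl;DhhCre, without Nf1fl/fl, whereas their RNA protocol and the study's methods have Nf1fl/fl in it as well, so that both genotypes carry floxed Nf1 and Dhh-Cre. Cre recombinase under the Dhh promoter deletes floxed genes in the Schwann cell lineage, while macrophages and neurons of the same tissue keep intact copies. The strain background was C57BL/6-I129 in every library. The labels name the tissue DRG for the Nf1fl/fl;DhhCre libraries and neurofibroma tumor for the others, so that genotype and labelled tissue cannot be told apart. The study's methods, however, call the tissue of both genotypes DRG/tumors. Its results set tumors of the Nf1fl/fl;DhhCre mice against DRG/tumors of the other genotype. Sensory neuron markers, given below, were higher in the libraries labelled neurofibroma tumor. The age of the mice and whether tissue was pooled are not given in the sources used here. Replicates carry different mouse numbers, but nothing else states how they were taken, so p-values measure the spread between these samples.

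Before a cell divides it must copy its DNA once and then share the copies between its daughters. In late G1 the origin recognition machinery, with Cdc6 and Cdt1, loads the Mcm2 to Mcm7 helicase on DNA, and cyclin E and the E2F factors bring on S phase, when polymerases with the Pcna clamp copy the genome. In G2 and mitosis cyclin A and cyclin B with Cdk1, the Aurora and Polo kinases, the spindle motors and the checkpoint kinases condense and separate the chromosomes, and the transcripts of both sets of genes are scarce in resting cells. Adult Schwann cells of a healthy nerve rarely divide, and proliferation is a feature of the neurofibroma cell.

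Promoters of the replication and mitosis genes are known to carry different short sequences, and stretches chosen because they hold a match are shown for both sets. Sequences are from RefSeq on the mouse build GRCm38.p6, each is written 5′ to 3′ on the strand of its gene, and capitals mark the match. For Mki67 (chr7:135716460-135716579, minus strand, bases -200 to -81 from the start of transcription) and Top2a (chr11:99024190-99024309, minus strand, bases -120 to -1) the capitals mark the cell cycle homology region (CHR, TTTGAA or its reverse complement). For Mcm6 (chr1:128359706-128359825, minus strand, bases -120 to -1) and Cdc6 (chr11:98908001-98908120, plus strand, bases -150 to -31) they mark E2F motifs. The first run of capitals in Mcm6 holds 2 E2F matches that overlap on opposite strands, which with the other makes 3.
Mki67: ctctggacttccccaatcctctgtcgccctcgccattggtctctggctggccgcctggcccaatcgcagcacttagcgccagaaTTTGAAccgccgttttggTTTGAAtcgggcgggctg
Top2a: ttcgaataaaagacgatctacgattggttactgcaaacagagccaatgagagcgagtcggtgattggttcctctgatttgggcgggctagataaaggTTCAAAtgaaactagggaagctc
Mcm6: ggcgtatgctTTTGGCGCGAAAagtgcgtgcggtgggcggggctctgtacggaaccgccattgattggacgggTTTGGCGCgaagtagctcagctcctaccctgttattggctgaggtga
Cdc6: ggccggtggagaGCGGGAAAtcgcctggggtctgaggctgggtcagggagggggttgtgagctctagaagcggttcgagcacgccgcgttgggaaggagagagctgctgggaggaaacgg

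Windows of 300 bases (250 before the start to 50 after it) were found for 17 of the 20 replication genes and 20 of the 25 mitosis genes. E2F motifs (TTTCCCGC, TTTGGCGC, TTTCGCGC or TTTGCCGC, both strands) were present in 8 of the 17 replication genes (47.1%), namely Mcm3, Mcm5, Mcm6, Mcm7, Cdc6, Cdt1, Pola1 and E2f2. One was present in 1 of the 20 mitosis genes, Cdk1 (5.0%), and in 4.23% of the 11572 tested genes with a window. CHR matches were in 15 of the 20 mitosis genes (75.0%) and in 2 of the 17 replication genes (11.8%), Mcm2 and E2f2, against 14.5% of the tested genes. Where a gene had several windows, a match in any of them was counted. The CHR match of E2f2 lay in a different window from its E2F match. The letters CCAAT were in 17 mitosis genes (85%) and 11 replication genes (64.7%), against 42.2% of the tested genes. Median GC content was 59.3% for the replication genes, 61.3% for the mitosis genes and 60% for the tested genes. The core letters TGTGGT of the Runx motif, searched on both strands, were in 2 replication genes (11.8%, Mcm3 and Rrm1) and 2 mitosis genes (10%, Plk1 and Kif11), against 15.3% of the tested genes. No motif contains another, though neighbouring matches can share end bases, and a match describes the letters and no binding. The shares differ between the lists in the plot of promoter motifs.

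**Figure D1:**
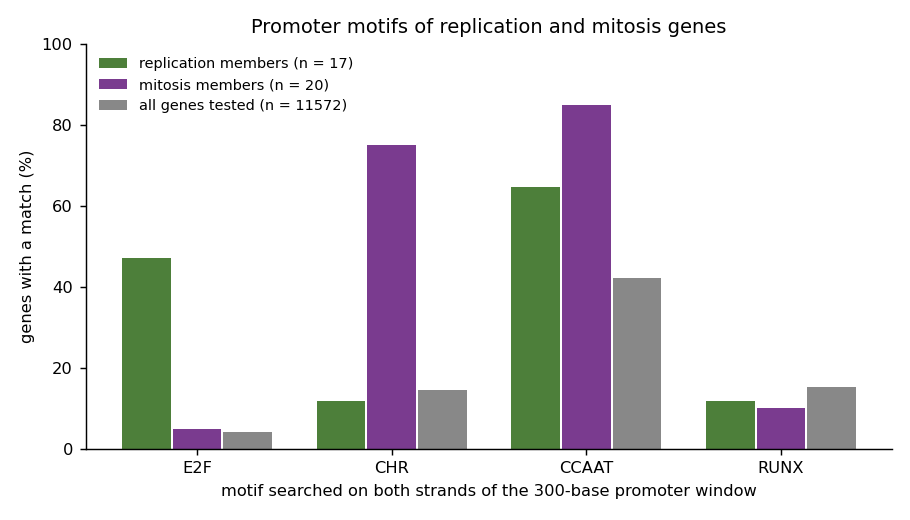
Share of genes (%, linear axis from 0) with each motif in any of their 300-base promoter windows. Bars are replication genes (n = 17, green), mitosis genes (n = 20, purple) and all genes tested that have a window (n = 11572, grey). E2F matches were in 47.1% of the replication genes and CHR matches in 75.0% of the mitosis genes, while RUNX matches were in 11.8% and 10%, against 15.3% of all genes tested.

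The deposited counts summed to between 12439296 and 16682194 per library, and a count of 3 corresponds to 0.179 to 0.247 CPM, the unit used below for reads set to a common library total with TMM factors. Runx1 was at 131, 141 and 172 CPM in the Nf1fl/fl;DhhCre libraries. Replicates 1 to 3 of the other genotype had 84.0, 78.9 and 185 CPM, so that its replicate 3 held the highest of the 6 values. Such counts cover the whole gene in bulk tissue, where neurons and macrophages keep intact copies, so they cannot decide the genotype. Sensory neuron markers summed to 4842 CPM in that replicate 3, against 2105 and 2340 CPM in replicates 1 and 2. The part of neurons in its Runx1 value was not tested. Libraries of this genotype are called the libraries labelled double knockout throughout. Runx3 was lower in each library labelled double knockout than in any Nf1fl/fl;DhhCre library (13.5, 10.3 and 12.1 against 19.9, 15.1 and 29.9 CPM). Such a decrease without overlap was seen in 20.5% of the genes tested, and Runx3 did not pass the test (log2 fold change -0.79, limma-voom adjusted p = 0.104). Nf1, counted over the whole gene, was at 334, 273 and 298 CPM against 266, 263 and 342 CPM and overlapped. Skeletal muscle markers summed to 2718 CPM in Nf1fl/fl;DhhCre replicate 2 and to 11810 CPM in replicate 2 labelled double knockout, against 7.06 to 73.2 CPM in the other libraries. Replicate 2 or 3 labelled double knockout was sequenced in another run than the other libraries, and since the mouse numbers of these libraries differ between title and data, which of the 2 it was is unclear. Schwann cell transcripts were present throughout, with Sox10 at 195 to 256 CPM over the 6 libraries.

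Of the mitosis genes, 8 of 25 had lower levels in the group labelled double knockout by the study's rule of an adjusted p below 0.05 and a change of more than 2-fold (limma-voom with Benjamini-Hochberg adjustment over all genes), and 0 were higher. By the same rule 5.36% of the genes tested were lower and 8.03% were higher. The 8 were Mki67, Top2a, Ccna2, Ccnb1, Bub1b, Kif23, Cenpe and Foxm1. With the p-value rule alone 11 mitosis genes were lower, against 8.22% of the genes tested, and at an unadjusted p below 0.05 there were 15 lower and 0 higher, against 16.1% and 19.1% of the genes tested. All 25 log2 fold changes were below 0, from -2.64 to -0.09, with a median of -0.98 (a median fold of 1.97), against a median of 0.02 over all genes tested. No overlap between the groups, with the libraries labelled double knockout lower, was seen in 15 of the 25 genes and in 20.5% of the genes tested. Of the replication genes, 1 of 20 was lower by the study's rule, Mcm3, and 0 were higher. At an unadjusted p below 0.05 there were 8 of 20 lower, against the same 16.1% of the genes tested, and 0 higher. A decrease without overlap between the groups was seen in 12 of the 20, and the median log2 fold change was -0.69.

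**Figure D2:**
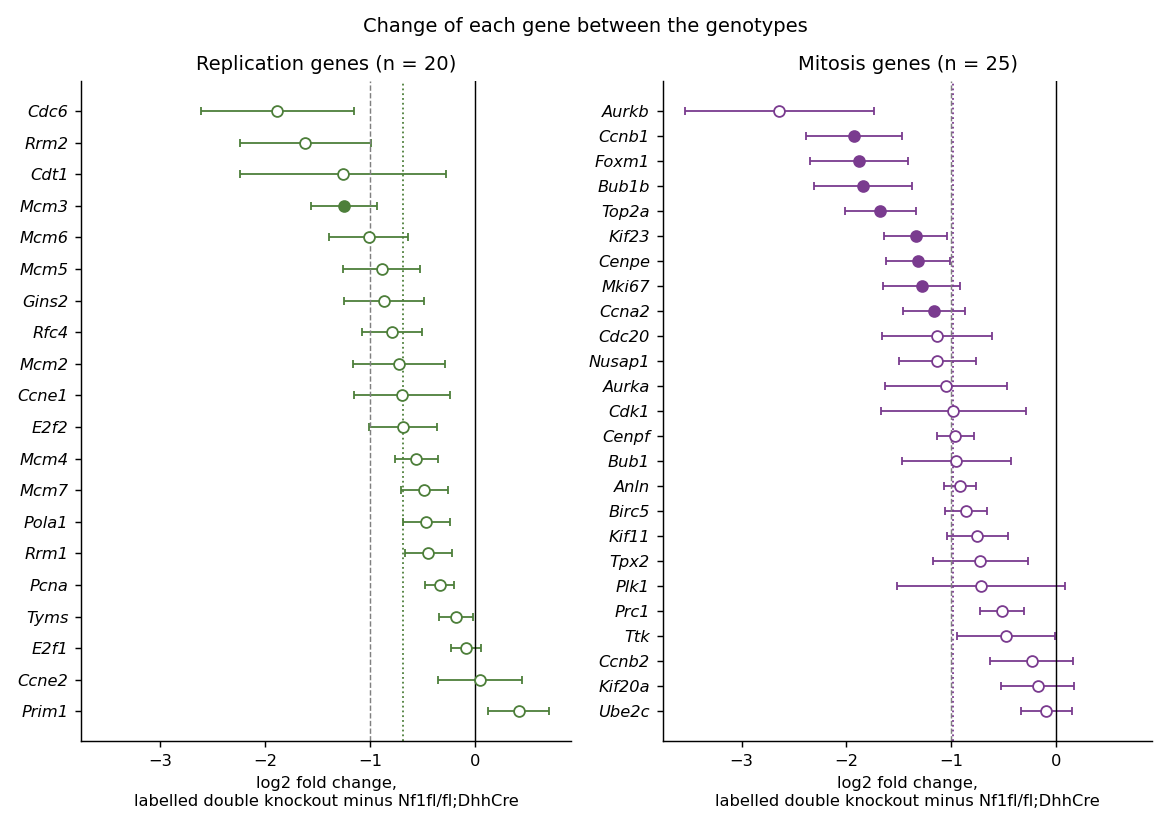
Log2 fold change of each gene (points, labelled double knockout minus Nf1fl/fl;DhhCre, limma-voom) with its standard error (bars, n = 3 libraries per genotype), filled where the gene passed both thresholds; dotted lines mark the median of each list and the dashed line a 2-fold decrease. All 25 mitosis genes lie below 0 with a median of -0.98, and 18 of the 20 replication genes lie below 0 with a median of -0.69.

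Mki67 and Top2a, both used as markers of dividing cells, fell. Mki67, which encodes the Ki-67 protein that coats mitotic chromosomes (chr7:135689784-135716361 in GENCODE M21 on GRCm38, minus strand), was at 91.3, 130.1 and 118 CPM in the Nf1fl/fl;DhhCre group, against 62.1, 23.4 and 65.3 CPM in the group labelled double knockout. The groups did not overlap, and replicate 2 labelled double knockout was far below the other libraries. The difference was -1.28 on the log2 scale (SE 0.37, limma-voom adjusted p = 0.0498), and -0.81 (limma-voom adjusted p = 0.0571) without that replicate. The quasi-likelihood test of edgeR on all 6 libraries did not call it (-1.17, adjusted p = 0.0682). Top2a, the topoisomerase that untangles the copied DNA strands (chr11:98992943-99024189, minus strand), was at 37.1, 41.9 and 40.3 CPM against 17.3, 6.25 and 16.6 CPM. The 3 Nf1fl/fl;DhhCre values lay close together and each exceeded all values of the other group, of which replicate 2 was again the lowest. The log2 fold change was -1.68 (SE 0.34, limma-voom adjusted p = 0.0191), and without replicate 2 labelled double knockout it was -1.23 (limma-voom adjusted p = 0.0284). Per kilobase of exon, Mki67 had the highest level of the mitosis genes in both genotypes, at 11.2 CPM per kb in the Nf1fl/fl;DhhCre group and 4.99 CPM per kb in the other.

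Among the cyclins, Ccna2 and Ccnb1 fell and Ccnb2 did not pass the test. Ccna2 encodes cyclin A2, which acts in S phase and G2 (chr3:36564865-36572150, minus strand), and was at 16.02, 15.9 and 12.4 CPM in the Nf1fl/fl;DhhCre group, against 7.33, 4.19 and 8.58 CPM in the group labelled double knockout. Every value of the first group lay above every value of the other (log2 fold change -1.16, SE 0.29, limma-voom adjusted p = 0.0346). Ccna2 kept its call in 1 of the 6 fits without 1 library. Ccnb1 encodes cyclin B1, the partner of Cdk1 at the entry into mitosis (chr13:100778650-100786570, minus strand), and was at 4.99, 6.43 and 7.38 CPM against 1.43, 0.905 and 2.84 CPM. The groups were again apart, and replicate 3 labelled double knockout was the nearest to the Nf1fl/fl;DhhCre group (log2 fold change -1.92, SE 0.46, limma-voom adjusted p = 0.0294). Of the same 6 fits, 2 called Ccnb1. Ccnb2, the other B-type cyclin of the list, was at 2.91, 3.63 and 2.50 CPM against 1.67, 2.47 and 3.70 CPM. Here the ranges overlapped, with the highest of the 6 values in replicate 3 labelled double knockout (limma-voom adjusted p = 0.718). Ccnb1 and Ccnb2 each have an annotated pseudogene, whose reads may have been split from them or added to them. Cdk1, the kinase of both cyclins, had the lowest level per kilobase of the 45 genes and was counted in only 3, 9 and 12 reads in the group labelled double knockout (log2 fold change -0.98, SE 0.69, limma-voom adjusted p = 0.357, and -0.46 without replicate 1 of that group).

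Foxm1 and the checkpoint and kinetochore genes came next. Foxm1 encodes a forkhead factor that drives transcription of G2 and mitosis genes (chr6:128362967-128376146, plus strand) and was at 8.53, 17.2 and 14.9 CPM in the Nf1fl/fl;DhhCre group, against 4.46, 1.89 and 4.89 CPM in the group labelled double knockout. It did not overlap between the groups, although Nf1fl/fl;DhhCre replicate 1 lay well below the other replicates of its group (log2 fold change -1.88, SE 0.47, limma-voom adjusted p = 0.0337). Bub1b, the BubR1 protein of the spindle assembly checkpoint (chr2:118598211-118641591, plus strand), was at 5.69, 13.3 and 9.75 CPM against 2.79, 2.96 and 2.05 CPM. The libraries labelled double knockout lay close together, and replicate 2 was the highest of them (log2 fold change -1.84, SE 0.46, limma-voom adjusted p = 0.0346). With sample quality weights Bub1b lost its call (limma-voom adjusted p = 0.0526). Its relative Bub1, a checkpoint kinase, was at 7.70, 2.98 and 4.68 CPM against 1.67, 1.89 and 3.90 CPM, and the groups overlapped (log2 fold change -0.95, limma-voom adjusted p = 0.235, and -0.59 without Nf1fl/fl;DhhCre replicate 1). Cenpe, a kinesin of the kinetochore (chr3:135212537-135273611, plus strand), was at 14.98, 25.3 and 16.9 CPM against 8.53, 5.51 and 8.65 CPM. The decrease was seen in each library labelled double knockout (log2 fold change -1.32, SE 0.31, limma-voom adjusted p = 0.0277). Cenpf, a large protein of the outer kinetochore, was at 24.1, 25.4 and 24.8 CPM against 11.9, 11.2 and 14.99 CPM. The spread within the groups was small and the adjusted p-value passed, but the change stayed just under 2-fold (log2 fold change -0.96, SE 0.18, limma-voom adjusted p = 0.0154).

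Of the genes of the central spindle and of cytokinesis, Kif23 passed both thresholds and Anln and Birc5 the p-value rule. Kif23, a kinesin of the centralspindlin complex (chr9:61915905-61946774, minus strand), was at 8.11, 10.4 and 8.79 CPM in the Nf1fl/fl;DhhCre group, against 4.22, 2.47 and 4.22 CPM in the group labelled double knockout. The groups were apart (log2 fold change -1.34, SE 0.30, limma-voom adjusted p = 0.0252). Anln, the scaffold anillin of the contractile ring, was at 45.6, 55.8 and 55.9 CPM against 28.1, 29.3 and 26.2 CPM, and replicate 2 labelled double knockout was the highest of its group. This gene had the smallest adjusted p-value of the 45 and a change under 2-fold (log2 fold change -0.91, SE 0.15, limma-voom adjusted p = 0.0127). Birc5, or survivin, a subunit of the chromosomal passenger complex, was also lower by the p-value rule only, at 12.1, 11.4 and 11.0 CPM against 6.85, 6.09 and 6.07 CPM (log2 fold change -0.86, limma-voom adjusted p = 0.0285). Birc5 did not pass that rule in any fit without 1 library (limma-voom adjusted p from 0.0529 to 0.0990), whereas Anln passed it in each. Prc1, which bundles the microtubules of the central spindle, was at 22.2, 19.8 and 20.3 CPM against 18.7, 11.5 and 14.0 CPM. Its groups did not overlap, but it did not pass the test (log2 fold change -0.52, SE 0.21, limma-voom adjusted p = 0.125).

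Some mitosis genes with a large change varied widely between libraries and did not pass. Aurkb, the kinase of the chromosomal passenger complex, was at 5.97, 5.96 and 6.61 CPM in the Nf1fl/fl;DhhCre group, against 2.79, 0.0822 and 2.31 CPM in the group labelled double knockout. The value in replicate 2 rested on 1 read, under the floor of 3 counts, and the log2 fold change of -2.64 (SE 0.90, limma-voom adjusted p = 0.0802) was the most negative of the 45 genes. Without that replicate it was -1.28, and Cdc6 (-2.12), Bub1b (-1.94), Ccnb1 (-1.56), Foxm1 (-1.48) and Cdt1 (-1.41) were then more negative. Cdc20, an activator of the anaphase-promoting complex, was at 3.75, 3.63 and 1.60 CPM against 1.36, 1.32 and 1.12 CPM, without overlap (log2 fold change -1.13, SE 0.52, limma-voom adjusted p = 0.169). Nusap1, a spindle protein that binds microtubules, was at 7.91, 12.2 and 9.94 CPM against 7.49, 2.96 and 4.16 CPM, and its groups were apart by a small margin (log2 fold change -1.13, SE 0.36, limma-voom adjusted p = 0.0688). At the other end Ube2c, the ubiquitin-conjugating enzyme of the anaphase-promoting complex, was at 8.11, 10.3 and 10.3 CPM against 6.93, 10.2 and 10.03 CPM. Apart from replicate 1 labelled double knockout these values lay close to those of the Nf1fl/fl;DhhCre group (log2 fold change -0.09, SE 0.24, limma-voom adjusted p = 0.822). Exons of the muscle gene Tnnc2 on the opposite strand cover 22.8% of the exon bases of Ube2c, and Tnnc2 itself was at 49.9 and 231 CPM in the muscle-rich replicates and at most 1.58 CPM in the other libraries; the part of these reads in the Ube2c values was not tested. The groups also overlapped for Plk1, Aurka, Ttk, Tpx2, Kif11 and Kif20a, kinases and motor or spindle proteins, with log2 fold changes from -1.05 (Aurka) to -0.18 (Kif20a). Exons of Cdc23 on the opposite strand cover 29.3% of the exon bases of Kif20a, whose reads could not be told apart from those of Cdc23 there if strand was not used.

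**Figure D3:**
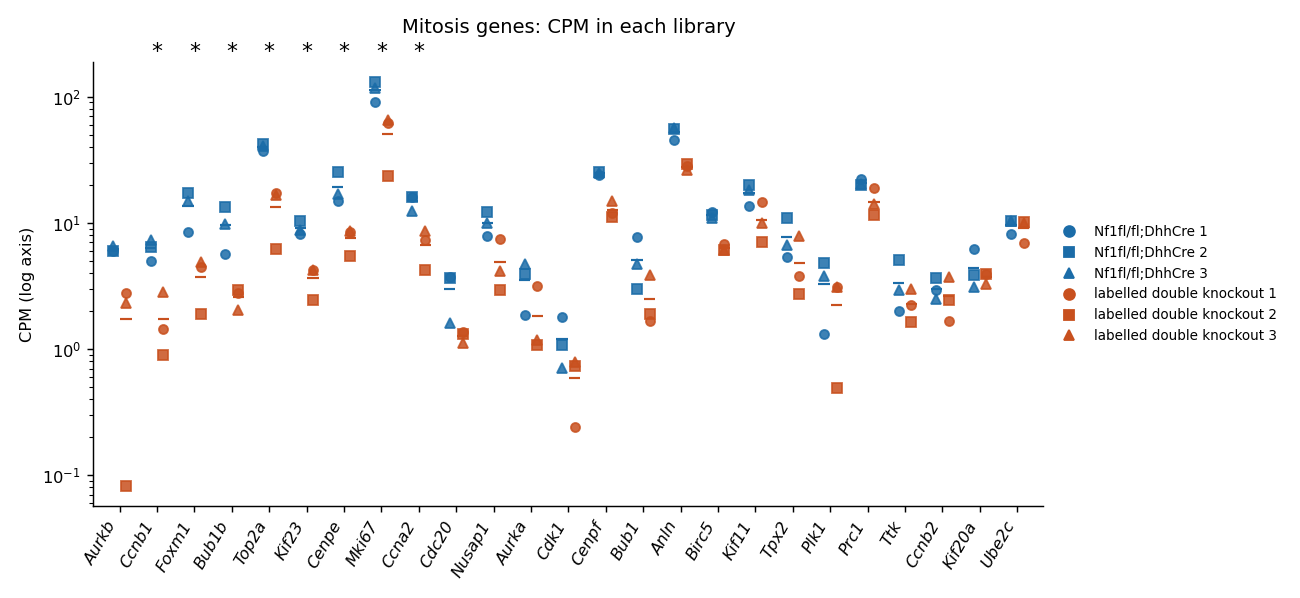
CPM (log axis) of the 25 mitosis genes in each library, Nf1fl/fl;DhhCre in blue and labelled double knockout in orange, with dashes at the group means (n = 3) and asterisks over the 8 genes that passed both thresholds; circles, squares and triangles are replicates 1, 2 and 3. Genes are ordered by log2 fold change from Aurkb (-2.64) to Ube2c (-0.09), and replicate 2 labelled double knockout (orange squares) was the lowest of the 6 libraries in 16 of the 25 genes.

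The replication genes began with the Mcm2 to Mcm7 helicase. All 6 of its genes had a log2 fold change below 0, with a median of -0.80, and 5 of them did not overlap between the groups, against 20.5% of the genes tested, but Mcm3 alone passed the study's rule, against 5.36%. Mcm3 (chr1:20802968-20820312, minus strand) was at 6.80, 9.47 and 9.75 CPM in the Nf1fl/fl;DhhCre group, against 3.75, 2.63 and 4.56 CPM in the group labelled double knockout. Each library of the second group was below each of the first (log2 fold change -1.25, SE 0.32, limma-voom adjusted p = 0.0349). Mcm6, whose promoter is printed above, was at 11.6, 15.9 and 13.5 CPM against 6.85, 3.62 and 11.2 CPM. Its groups were apart only by a small margin, because replicate 3 labelled double knockout lay near the lowest Nf1fl/fl;DhhCre value (log2 fold change -1.01, SE 0.38, limma-voom adjusted p = 0.103). Without replicate 2 of that group the log2 fold change was -0.60. Log2 fold changes were -0.89 for Mcm5, -0.72 for Mcm2, -0.56 for Mcm4 and -0.48 for Mcm7, with limma-voom adjusted p-values from 0.101 to 0.290. They were -0.55 for Mcm5 without replicate 2 and -0.31 for Mcm7 without replicate 3 labelled double knockout, and -0.44 for Mcm2 without Nf1fl/fl;DhhCre replicate 2. Mcm2 was the gene that overlapped, because Nf1fl/fl;DhhCre replicate 1 was at 3.61 CPM, beside 8.64 and 8.21 CPM in its group and 3.51, 3.13 and 5.15 CPM in the other.

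The helicase loaders were counted in few reads. Cdc6, the loader whose promoter is also printed, was at 4.86, 7.86 and 2.57 CPM in the Nf1fl/fl;DhhCre group, against 0.478, 1.81 and 1.98 CPM in the group labelled double knockout. The groups did not overlap, and the log2 fold change of -1.88 was the most negative of the replication genes, with a wide error (SE 0.73, limma-voom adjusted p = 0.112) and a value of -1.24 without replicate 1 labelled double knockout. Cdt1, the partner of Cdc6 in loading, was at 0.624, 3.40 and 1.67 CPM against 0.159, 0.822 and 1.58 CPM and overlapped, and the value in replicate 1 labelled double knockout rested on 2 reads (log2 fold change -1.26, SE 0.98, limma-voom adjusted p = 0.403). Without that replicate it was -0.36. Gins2, a subunit of the replicative helicase complex, had a log2 fold change of -0.87 (limma-voom adjusted p = 0.154) and no overlap. Exons of another gene on the opposite strand cover 67.3% of its exon bases, and whether the counting used strand is not stated.

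The genes of the replication fork and of nucleotide supply had log2 fold changes from -1.62 (Rrm2) to 0.42 (Prim1) and did not pass the study's rule. Pcna, the sliding clamp of the DNA polymerases, was at 45.3, 51.8 and 52.4 CPM in the Nf1fl/fl;DhhCre group, against 37.5, 37.6 and 43.3 CPM in the group labelled double knockout. The groups were apart, yet the difference was small (log2 fold change -0.33, SE 0.14, limma-voom adjusted p = 0.138), and reads of its annotated pseudogenes may have been split from it or added to it. The same limit holds for Tyms, which also has an annotated pseudogene. Rfc4, a subunit of the clamp loader, had a log2 fold change of -0.79 (SE 0.29, limma-voom adjusted p = 0.0961) without overlap. Pola1, the catalytic subunit of the polymerase that starts each strand, was at 21.2, 16.8 and 25.3 CPM against 16.7, 12.3 and 16.3 CPM, also without overlap (log2 fold change -0.46, limma-voom adjusted p = 0.189, and -0.28 without Nf1fl/fl;DhhCre replicate 3). Prim1, the primase subunit that works with Pola1, had the opposite sign, at 5.20, 9.12 and 7.95 CPM against 12.3, 8.14 and 9.37 CPM. Its groups overlapped and it did not pass the test (log2 fold change 0.42, SE 0.29, limma-voom adjusted p = 0.343, and 0.22 and 0.64 without Nf1fl/fl;DhhCre replicates 1 and 2). Of the ribonucleotide reductase, which makes deoxyribonucleotides, the small subunit Rrm2 was at 3.95, 4.05 and 3.78 CPM against 2.39, 0.329 and 2.11 CPM. Replicate 2 labelled double knockout was by far the lowest, with 4 reads, and the groups were apart (log2 fold change -1.62, SE 0.63, limma-voom adjusted p = 0.114). Without that replicate the log2 fold change of Rrm2 was -0.80. The large subunit Rrm1 was at 29.9, 37.4 and 36.2 CPM against 29.9, 29.9 and 18.8 CPM, and its groups were apart by less than the digits shown (log2 fold change -0.44, SE 0.22, limma-voom adjusted p = 0.200; -0.20 without replicate 3 labelled double knockout). Tyms, which makes thymidylate, was at 52.2, 68.1 and 53.9 CPM against 58.0, 48.0 and 48.1 CPM and overlapped (log2 fold change -0.18, SE 0.16, limma-voom adjusted p = 0.481). Without Nf1fl/fl;DhhCre replicate 2 the log2 fold change of Tyms was -0.011.

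Among the regulators of the entry into S phase, E2f1 was at 74.1, 72.4 and 58.9 CPM in the Nf1fl/fl;DhhCre group, against 65.3, 58.6 and 69.1 CPM in the group labelled double knockout. The groups overlapped over most of their range (log2 fold change -0.08, SE 0.15, limma-voom adjusted p = 0.731). Per kilobase of exon E2f1 had the highest level of all 45 genes, at 21.7 CPM per kb in the Nf1fl/fl;DhhCre group and 20.4 CPM per kb in the other, with Pcna next at 20.8 and 16.4 CPM per kb. E2f2 had a log2 fold change of -0.68 (SE 0.33, limma-voom adjusted p = 0.183), which was -0.43 without Nf1fl/fl;DhhCre replicate 3. Cyclin E, the cyclin of the G1 to S transition, was represented by Ccne1 (log2 fold change -0.69, SE 0.46, limma-voom adjusted p = 0.324, and -0.34 without the same replicate) and Ccne2 (log2 fold change 0.06, SE 0.40, limma-voom adjusted p = 0.939). Ccne2 changed sign under several settings, for example to -0.035 in edgeR and -0.042 in DESeq2.

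**Figure D4:**
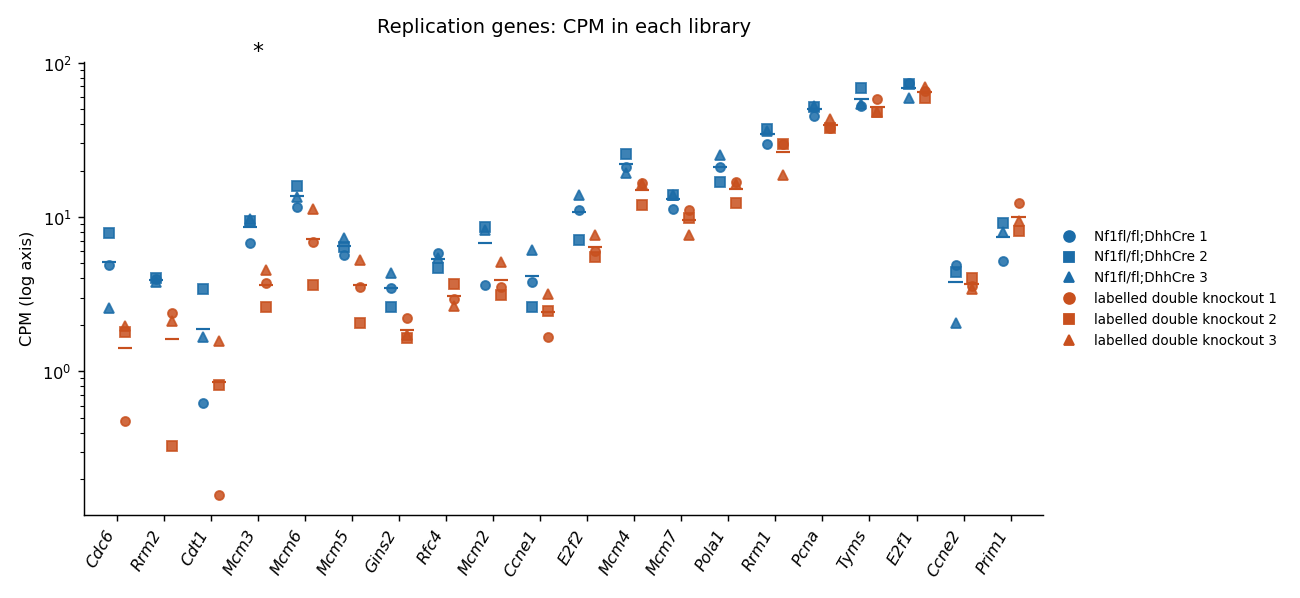
CPM (log axis) of the 20 replication genes in each library, drawn as for the mitosis genes, with an asterisk over Mcm3, the 1 gene that passed both thresholds. Genes are ordered by log2 fold change from Cdc6 (-1.88) to Prim1 (0.42), and those at 25 CPM or more in both groups on average (Rrm1, Pcna, Tyms and E2f1) lie toward the right, with log2 fold changes from -0.44 to -0.08.

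The decrease of the mitosis genes had a median 0.29 log2 units below that of the replication genes, and this difference stayed between -0.46 and -0.23 over all the settings tried. It is a description of these lists, without a test. The mean log2 CPM of the 20 replication genes was 3.17, 3.44 and 3.37 in the Nf1fl/fl;DhhCre libraries and 2.58, 2.44 and 2.88 in the libraries labelled double knockout. For the 25 mitosis genes it was 3.04, 3.39 and 3.16 against 2.30, 1.62 and 2.41. Both lists were thus lower in each library labelled double knockout, and the mitosis genes were lowest in replicate 2. Within a library, the mitosis mean minus the replication mean was -0.14, -0.05 and -0.21 in the Nf1fl/fl;DhhCre libraries, a mean of -0.13 ± 0.08 (SD, n = 3). It was -0.28, -0.82 and -0.46 in the libraries labelled double knockout, a mean of -0.52 ± 0.28 (SD, n = 3), so that the groups did not overlap in this measure either. In bulk tissue fewer dividing cells and less RNA per dividing cell cannot be told apart.

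Replicate 2 labelled double knockout was the lowest of the 6 libraries in 27 of the 45 genes, 11 of replication and 16 of mitosis. Without it 1 mitosis gene, Top2a, passed the study's rule, where the genes lower over all genes fell from 839 to 326, with a median of -0.86 for the mitosis genes and -0.56 for the replication genes. Without both muscle-rich replicates, 1 of each genotype, the medians were -0.83 and -0.48 and Top2a was the 1 member to pass (log2 fold change -1.17, limma-voom adjusted p = 0.0244), with 719 genes lower over all genes. In that fit the log2 fold changes of Mki67 (-0.69), Foxm1 (-1.25), Cenpe (-0.87), Nusap1 (-0.69), Mcm6 (-0.47), Mcm2 (-0.33) and Mcm4 (-0.28) were among those that shrank by about 1.5 times or more. Leaving out replicate 3 labelled double knockout, the library with the high Runx1 value, gave medians of -1.19 and -0.73 and 4 mitosis genes past the rule (Top2a, Ccna2, Ccnb1 and Cenpf), of 473 lower over all genes. Mki67, Foxm1 and Mcm3 did not pass in any fit without 1 library. For Mki67 the log2 fold change ran from -1.55 to -0.81 in these fits, with limma-voom adjusted p-values from 0.0515 to 0.127. That of Mcm3 ran from -1.44 to -1.04 with limma-voom adjusted p-values from 0.0599 to 0.112. Without Nf1fl/fl;DhhCre replicate 3 there were 0 mitosis genes past the rule, of 498 lower over all genes, although all 25 were still below 0.

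Other genes of the same processes were examined from longer lists. Of 44 other replication genes 1 was lower by the study's rule, Clspn, a mediator of the replication checkpoint (log2 fold change -1.32, SE 0.35, limma-voom adjusted p = 0.0405), and 0 were higher. This call was lost in edgeR (adjusted p = 0.0535) and in each fit without 1 library, where the log2 fold change of Clspn ran from -1.54 to -0.93. The 1 of 44 is 2.27%, below the 5.36% of all genes tested, and at an unadjusted p below 0.05 there were 5 lower, also a smaller share than the 16.1% of all genes, and 2 higher, against 19.1% of all genes. Their median log2 fold change was -0.22. Of 54 other mitosis genes 50 were tested, 5 were lower (10%, against 5.36% of all genes tested) and 1 was higher (against 8.03%), with a median of -0.77. At an unadjusted p below 0.05 there were 17 lower and 1 higher, against 16.1% and 19.1% of all genes tested. The 5 lower by the study's rule were Kif4 and Kif15, mitotic kinesins, Cdca2, a chromatin-bound phosphatase regulator, Lmnb1, a nuclear lamin, and Mybl2, the B-Myb factor that acts with the DREAM-related complex on mitosis genes. Kif4 was at 4.44, 7.80 and 6.35 CPM against 2.39, 1.15 and 0.858 CPM (log2 fold change -2.19, SE 0.50, limma-voom adjusted p = 0.0261). Mybl2 was at 2.84, 4.41 and 3.53 CPM against 0.637, 0.576 and 1.25 CPM (log2 fold change -2.11, SE 0.50, limma-voom adjusted p = 0.0287). In both, every library labelled double knockout was below every Nf1fl/fl;DhhCre library. Of the fits without 1 library, 2 of 6 called Kif4 and Kif15, and 1 of 6 called Cdca2, Lmnb1 and Mybl2. The gene that rose was Stmn1, which encodes the microtubule destabilizer stathmin and is also abundant in neurons, at 24.3, 33.0 and 29.0 CPM against 115, 140.4 and 166 CPM (log2 fold change 2.28, SE 0.19, limma-voom adjusted p = 0.00596), which kept its call in all 6.

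Among 16 genes of the E2F family, the pocket proteins and the DREAM complex, which hold and release the transcription of cell cycle genes, 2 were lower and 0 were higher, with a median of -0.08. At an unadjusted p below 0.05 there were 5 lower and 2 higher. Over all genes tested the shares were 5.36% lower and 8.03% higher by the rule, and 16.1% and 19.1% at the unadjusted p. E2f8, an atypical repressor E2F, was at 12.4, 17.4 and 23.4 CPM in the Nf1fl/fl;DhhCre group, against 4.30, 1.15 and 8.45 CPM in the group labelled double knockout (log2 fold change -2.21, SE 0.61, limma-voom adjusted p = 0.0446). It was not called in edgeR (adjusted p = 0.0702), and without replicate 2 labelled double knockout it was at -1.47 (limma-voom adjusted p = 0.0922). The pocket protein gene Rbl1 was at 13.4, 15.97 and 24.5 CPM against 7.57, 5.76 and 8.12 CPM (log2 fold change -1.28, SE 0.31, limma-voom adjusted p = 0.0314). Without 1 library, E2f8 and Rbl1 kept their calls in 1 of the 6 fits each. The groups did not overlap in either gene. The related genes Rb1 (log2 fold change 0.07, limma-voom adjusted p = 0.714) and Rbl2 (log2 fold change -0.27, limma-voom adjusted p = 0.231) did not pass the test.

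Marker genes of several cell types differed between the same libraries, and their counts by the study's rule stand against 5.36% lower and 8.03% higher over all genes tested. Of 11 macrophage markers 8 were lower and 0 higher, and their summed level was 1100 to 2043 CPM in the Nf1fl/fl;DhhCre libraries and 224.5 to 498.6 CPM in the libraries labelled double knockout. Of 6 fibroblast markers tested 4 were lower, with sums of 9176 to 9845 CPM against 3378 to 5600 CPM. All 10 sensory neuron markers were higher, with sums of 434 to 969 CPM against 2105 to 4842 CPM. Schwann cell markers summed to 1941 to 2054 CPM against 2021 to 2884 CPM, with a median log2 fold change of -0.05 over 9 genes, of which 1 was lower (Gfap) and 2 were higher (S100b and Ngfr). Of 8 T and NK cell markers tested 1 was lower, and of the 5 B cell, 6 mast cell, 6 endothelial and 9 skeletal muscle markers tested 0 passed in either direction. Satellite glia had 1 of 4 lower and 1 of 4 higher, and perineurial cells had 1 of 4 lower. Of the 5 red blood cell markers the 4 globin genes were listed at 0 in all 6 libraries, while Alas2, an enzyme of heme synthesis in red cell precursors, was at 18.3 to 30.04 CPM and did not pass the test. The part of these cell types in the changes of the replication and mitosis genes was not tested.

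**Figure D5:**
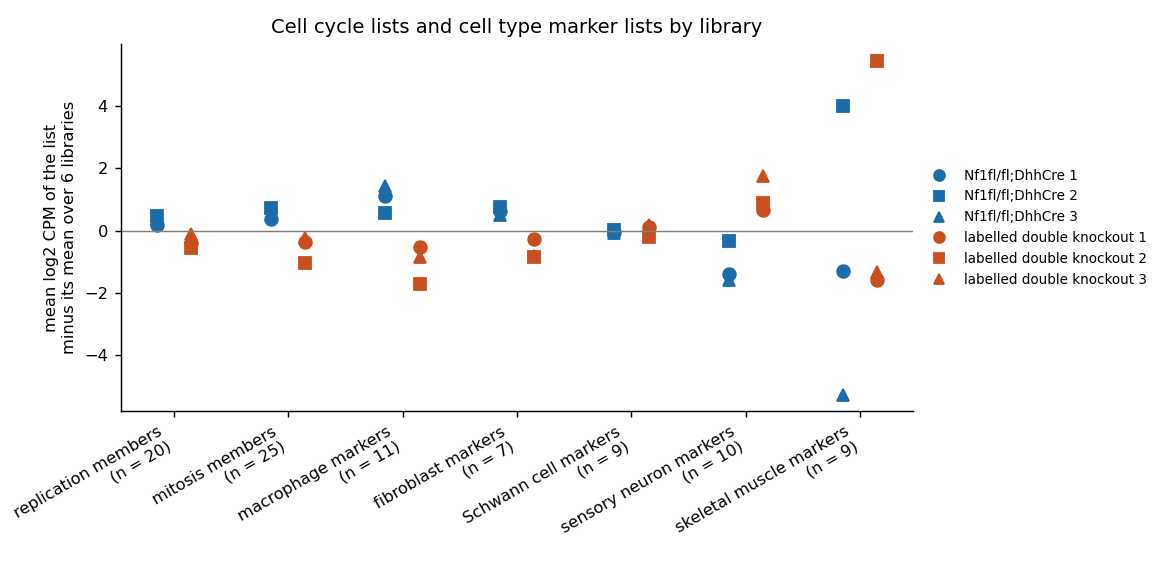
Mean log2 CPM of each gene list in each library minus its mean over the 6 libraries (linear axis), Nf1fl/fl;DhhCre in blue and labelled double knockout in orange; circles, squares and triangles are replicates 1, 2 and 3. Replication, mitosis, macrophage and fibroblast lists were lower in every library labelled double knockout, sensory neuron markers were higher, and skeletal muscle markers were highest in replicate 2 of each genotype.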

How the data were processed

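Bulk RNA-seq libraries of 6 mouse samples were used, 3 per genotype. RNA was amplified with the NuGEN Ovation system and libraries were made with Nextera XT. Per the submitters' processing notes, CASAVA 1.4, TopHat, featureCounts and limma were used with mm10, and the authors deposited whole-number read counts per gene, not normalized. The annotation, the strand setting and how multiply aligned reads were handled are not given in the sources used here.

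Low counts were removed in R 4.3.3 by filterByExpr (at least 10 counts, and 15 in total), and TMM factors (edgeR 4.0.16) were applied. Genotypes were compared with limma-voom (limma 3.58.1) without covariates and with Benjamini-Hochberg adjustment over all genes. CPM used TMM-scaled totals, and list means used log2 CPM with a prior count of 0.5. All 45 genes passed the filter, and 17 of 20 replication and 22 of 25 mitosis genes exceeded its cutoff of 0.691 CPM in all 6 libraries. Totals of 12439296 to 16682194 counts bound counting error only. Replicates of a genotype differed beyond sampling noise (chi-square per degree of freedom 22.8 to 142). Positions and exon lengths came from GENCODE M21, and promoters from RefSeq.

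The members and the lists were chosen with earlier results of these data known. Genes given with values were the members past both thresholds, in each list the 3 of the others with the largest change and the 3 with the highest CPM, Mki67, Pcna, Top2a, E2f1, Runx1, Runx3 and Nf1, and up to 5 per direction from the other lists. Kif15, Cdca2, Lmnb1 and the cell type markers past both thresholds were given without values of their own. Further genes were named after their values were seen, to complete a role. As alternatives, DESeq2 1.42.0 and the quasi-likelihood test of edgeR replaced limma-voom, size factors of DESeq2 or the library size alone replaced TMM, and 2 other filters were tried (CPM over 1 in 3 libraries, or any count). Quality weights, unadjusted p-values and fits without 1 library each were also tried. Leaving out both muscle-rich libraries was added after seeing the data. The steps were tested on simulated data. Figures used matplotlib 3.10.9 in Python 3.11.15.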

Additional observations from a re-analysis of the deposited data

How the results depend on the processing

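Over 57 genes and 854 alternative values, 723 kept their direction and side of the threshold, 102 lost and 9 gained significance, and 20 changed sign. Scaling by library size only moved the median of all genes by -0.08, the largest shift. Over 8 settings other than leaving out libraries, 7 to 10 mitosis genes passed the rule, while 843 to 1244 of all genes were lower. With 1 library left out, the counts lower were 0 to 5 (mitosis), 0 to 0 (replication), 0 to 1 (other replication, a gene other than Clspn), 0 to 5 (other mitosis, with 1 to 2 higher) and 0 to 1 (E2F, pocket protein and DREAM), and over all genes 362 to 2285 DEGs (181 to 1028 lower, 181 to 1304 higher). The replication median ranged from -0.73 to -0.46. Without both muscle-rich libraries 719 of all genes were lower, against 839 with them, and there were 1 mitosis gene, 0 replication, 0 other replication and 0 other mitosis genes lower, 2 other mitosis genes higher and 0 of the E2F list lower, and the replication median was -0.48. DESeq2 called 2 replication (Mcm3 and Cdc6), 2 other replication and 10 other mitosis genes lower, with 1236 of all genes, unadjusted p-values 4, 2 and 13, with 1244 of all genes, and library size only 4 of the E2F list. Sign changes were Ccne2 in edgeR (-0.035), DESeq2 (-0.042), library size only (-0.023) and quality weights (-0.056), and, without both muscle-rich libraries, E2f1 (0.043), Plk1 (0.46), Ttk (0.11) and Tyms (0.0038). Leaving out 1 library gave ranges that crossed 0 for Ccne2 (-0.30 to 0.29), E2f1 (-0.15 to 0.0073), Ccnb2 (-0.55 to 0.084), Plk1 (-1.19 to 0.072), Kif20a (-0.36 to 0.11), Ube2c (-0.18 to 0.11) and Nf1 (-0.18 to 0.043). The cause of these changes was not tested. Top2a kept its call in 4 of the 6 fits without 1 library, Ccnb1 and Bub1b in 2 each, Ccna2, Kif23 and Cenpe in 1 each, and Mki67, Foxm1 and Mcm3 in 0. Genes near the floor of 3 counts (Aurkb, Cdt1, Cdk1 and Rrm2) are limited by depth in single libraries. No paired analysis was made, because the sources used here link no library of one genotype to a library of the other. The labels give no replicate numbers, and those used here only name the libraries.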

Other observations

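Within the list of other mitosis genes, Pttg1, which encodes securin, the inhibitor of separase, had the widest spread. It was at 2.71, 3.81 and 7.18 CPM in the Nf1fl/fl;DhhCre group, against 36.7 and 28.3 CPM in replicates 1 and 3 labelled double knockout, while replicate 2 had a count of 0, which allows up to 0.247 CPM for counting error. With these values the fit gave a standard error of 2.22 on the log2 scale. Lin9, a subunit of the DREAM-related complex, passed the p-value rule but stayed under 2-fold, at 14.0, 14.8 and 18.9 CPM against 9.01, 7.07 and 8.58 CPM (log2 fold change -0.94, limma-voom adjusted p = 0.0283), whereas Lin37, Lin52 and Lin54 of the same complex had log2 fold changes of 0.07, 0.002 and 0.34 with limma-voom adjusted p-values of 0.893, 0.995 and 0.236. E2f3 had values of 24.8, 24.1 and 23.5 CPM against 28.7, 30.5 and 34.7 CPM, without overlap and with the sign opposite to E2f8, but did not pass the test (log2 fold change 0.38, limma-voom adjusted p = 0.115). E2f4, the repressor E2F of the DREAM complex, was at 17.0, 17.5 and 23.2 CPM against 10.9, 12.9 and 14.1 CPM and did not pass either (log2 fold change -0.59, limma-voom adjusted p = 0.0890).

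Of the 6 mitosis genes past the study's rule whose promoter window was found, 4 held a CHR match (Mki67, Top2a, Bub1b and Kif23), and of the 14 others 11 did. All 6 held CCAAT, as did 11 of the 14 others. Runx letters were in 0 of the 6 and in 2 of the 14 others (Plk1 and Kif11), against 15.3% of the tested genes. The 1 replication gene past the rule, Mcm3, held E2F, CCAAT and Runx letters. Of the 16 other replication genes with a window, 7 held E2F, 10 held CCAAT and 1 held Runx letters (Rrm1).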
